A study of Mus musculus with 6 samples.

Results

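The leukocyte and inflammation miRNAs were examined in small RNA sequencing of small extracellular vesicles (sEVs) released by cultured mouse islets. Members were chosen by name, as every listed arm of miR-142a, miR-150, miR-223, miR-155, miR-146a, miR-146b and miR-21a, which gave 9 of the 718 entries. The 4 leukocyte-restricted members were mmu-miR-142a-5p, mmu-miR-142a-3p, mmu-miR-150-5p and mmu-miR-223-3p. The 5 inducible members were mmu-miR-155-5p, mmu-miR-146a-5p, mmu-miR-146b-5p, mmu-miR-21a-5p and mmu-miR-21a-3p. Islets of mice fed a normal chow diet (NCD) gave normal islet-derived sEVs (nid-sEVs, n = 3 libraries), and islets of mice fed a high-fat diet (HFD) gave adaptive islet-derived sEVs (aid-sEVs, n = 3 libraries). All mice were wild-type C57BL/6J (C57/B6J in the labels), and the islets of both groups were kept in serum-free medium before the sEVs were spun down. The mice of the diet time course were 8 weeks old when feeding began, and 9 weeks of HFD were then taken to stand for the compensatory phase from which aid-sEVs are named. The labels of the 6 libraries give neither number. Nothing stated how many mice or cultures stood behind a library, so the p-values measure only the spread between these libraries.

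A miRNA is a short RNA that guides a silencing complex to messenger RNAs that pair with its seed, bases 2 to 8 from the 5′ end. Mature miR-142a, miR-150 and miR-223 are made almost exclusively by blood cells. miR-142a is found across the haematopoietic lineages, miR-150 is high in mature lymphocytes, and miR-223 is high in granulocytes and monocytes. The inducible miRNAs are made by many cell types and rise upon stimulation. miR-155 is induced when macrophages and lymphocytes are activated, miR-146a and miR-146b are switched on by NF-κB and restrain the signaling adaptors TRAF6 and IRAK1, and miR-21a is abundant in most tissues and increases with injury and inflammation. Islets hold resident macrophages and a dense capillary bed, so both groups of miRNAs can occur in islet preparations.

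Mature sequences were taken from RefSeq (GRCm38.p6) for 8 of the 9 members, all but miR-150-5p, for which none was available here. They are shown because the seed largely decides which members can share targets. Bases 2 to 8 are in capitals. The leukocyte-restricted members were
mmu-miR-142a-5p: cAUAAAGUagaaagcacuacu
mmu-miR-142a-3p: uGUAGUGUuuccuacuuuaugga
mmu-miR-223-3p: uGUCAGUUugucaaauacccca
and the inducible members were
mmu-miR-155-5p: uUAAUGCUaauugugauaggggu
mmu-miR-146a-5p: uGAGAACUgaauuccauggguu
mmu-miR-146b-5p: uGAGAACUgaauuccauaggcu
mmu-miR-21a-5p: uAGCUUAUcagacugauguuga
mmu-miR-21a-3p: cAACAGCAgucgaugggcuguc

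miR-146a-5p and miR-146b-5p had the same seed, GAGAACU, and were identical over their first 17 bases. From miR-146a-5p to miR-146b-5p the substitutions were G18A and U21C, counted from 1 at the 5′ end of the 22 bases. No other listed miRNA with a matched sequence (424 of 479) shared a seed with a member. Reads that ended before base 18 could not be told apart between miR-146a-5p and miR-146b-5p, and how such reads were assigned was not given in the sources used here.

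The hairpins of the members with a matched sequence lie at separate loci apart from the arms that share a hairpin (GRCm38, GENCODE M21). The locus of miR-150 was not looked up. Mir142 is at chr11:87756864-87756927 on the plus strand, inside the noncoding gene Mir142hg without overlap with its exons, and Mir142b is annotated on the opposite strand. Mir223 is at chrX:96242817-96242926 on the plus strand, within an exon of the noncoding gene F630028O10Rik. Mir155 is at chr16:84714140-84714204 on the plus strand, within an exon of Mir155hg. Mir146, the hairpin of miR-146a-5p, is at chr11:43374397-43374461 on the minus strand with no other annotated gene, whereas Mir146b is at chr19:46342762-46342870 on the plus strand in an intron of Mfsd13a. Mir21a is at chr11:86584067-86584158 on the minus strand and overlaps an exon of Vmp1.

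Levels are given as RPM, the reads of an entry scaled to the same total in each library. The mature sequences shown are 21 to 23 bases long, so levels of different members were compared without a length correction. Values of a group are listed in the order of libraries 1, 2 and 3 throughout. The library totals were 129152, 65671 and 50534 reads for nid-sEVs, and for aid-sEVs 519315, 352244 and 122266 reads. The lowest level that the depth could show, set at 3 reads, was therefore 23.2 to 59.4 RPM in nid-sEVs and 5.78 to 24.5 RPM in aid-sEVs. In nid-sEV library 1, 33.5% of the listed reads came from entries without a miRBase name, against 6.61 to 9.46% in the other libraries. The islet label was checked by miR-375-3p, the main β cell miRNA, which stood at 184473 ± 147928 RPM in nid-sEVs and 151896 ± 13972 RPM in aid-sEVs (SD, n = 3 each). The labels named no batch.

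miR-150-5p fell in aid-sEVs and was the only member that passed the limma test. By limma on log2(RPM + 1), adjusted over all 718 entries, 1 of the 9 members was called lower in aid-sEVs (adjusted p under 0.05, with a fold change beyond 1 on the log2 scale), against 1.81% of all entries. No member was called higher, against 15.6% of all entries. At an unadjusted limma p under 0.05, 2 members were lower and 0 were higher, against 5.85% and 22.0% of all entries. DESeq2 called 2 of 9 members lower and 0 higher, against 6.96% and 9.05% of all entries. It gave no adjusted p for 3 members, miR-142a-3p, miR-223-3p and miR-155-5p, so these could not be called. With its filter, edgeR's quasi-likelihood test called 1 of the 3 members it kept lower and 0 higher, against 8.57% and 19.6% of the 245 entries it kept. Without a filter it called 0 of 9 members in either direction, against 0.975% of all entries lower and 7.8% higher. Two-sided exact permutation tests of 3 libraries against 3 cannot go below p = 0.10 and were not used.

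In 2 of the 9 members, miR-150-5p and miR-146a-5p, every aid-sEV library was below every nid-sEV library, a pattern that 7.52% of all entries showed. No member was above in every aid-sEV library, a pattern that 24.2% of all entries showed. The log2 fold change (aid-sEVs minus nid-sEVs on the log2(RPM + 1) scale, which can understate changes of low miRNAs) was below 0 in 4 of 4 leukocyte-restricted members and in 2 of 5 inducible members, against 34.5% of all entries. Its median was -2.06 over the leukocyte-restricted members and 0.70 over the inducible members. Over all entries the median was 1.11, and over the 219 entries detected in all libraries it was -0.21. Entries with 0 reads numbered 229 to 417 in the nid-sEV libraries and 89 to 159 in the deeper aid-sEV libraries. After thinning of all libraries to the lowest total, the median of all entries was 0.19. The percentages of all entries given above were not corrected for depth.

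**Figure D1:**
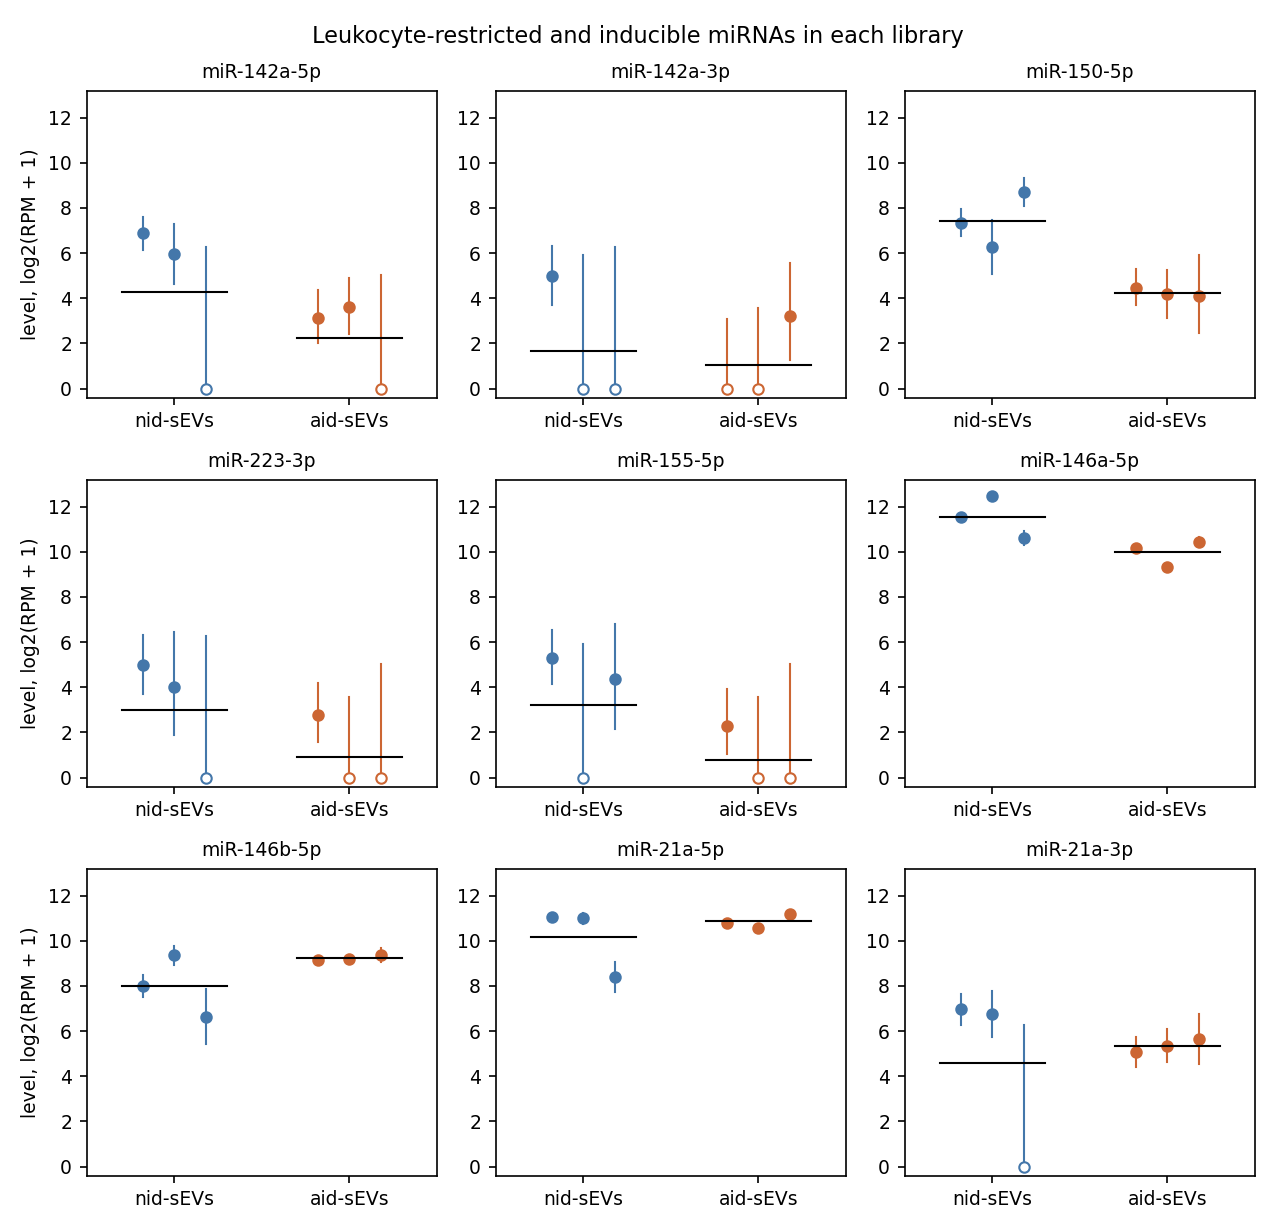
Level of each of the 9 members in each library as log2(RPM + 1), with nid-sEVs in blue and aid-sEVs in orange. Points are libraries, open points are libraries with 0 reads, vertical lines are 95% Wilson intervals of the share of reads, and horizontal lines are group means. The groups are separate for miR-150-5p and miR-146a-5p and overlap for the other members.

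miR-150-5p, the lymphocyte miRNA, was the most abundant leukocyte-restricted member in both groups. It had 163, 76.1 and 416 RPM across nid-sEVs (21, 5 and 21 reads) and 21.2, 17.0 and 16.4 RPM across aid-sEVs (11, 6 and 2 reads). All 3 aid-sEV libraries were below all 3 nid-sEV libraries, although 1 of them, aid-sEV library 3, was under its floor. The mean was 218 ± 176 RPM in nid-sEVs and 18.2 ± 2.61 RPM in aid-sEVs (SD, n = 3 each), 12.0-fold lower in aid-sEVs.

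The log2 fold change of miR-150-5p was -3.19 (SE 0.82, 95% interval -5.17 to -1.21, limma adjusted p = 0.046). Over the pooled reads, 47 of 245357 in nid-sEVs and 19 of 993825 in aid-sEVs were miR-150-5p, a ratio of 0.0998 with a 95% counting interval of 0.0553 to 0.173. The Wilson intervals of the closest libraries overlapped, with 32.5 to 178 RPM in nid-sEV library 2 and 11.8 to 37.9 RPM in aid-sEV library 1. These intervals and the floors cover counting error only. Leaving out any 1 of the 6 libraries ended the call, with log2 fold changes of -3.77 to -2.56 and limma adjusted p of 0.053 to 0.135. The paper's own comparison of the same libraries also lists miR-150-5p as decreased in aid-sEVs.

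miR-142a-5p was the next leukocyte-restricted member by level. It had 116, 60.9 and 0 RPM across nid-sEVs (15, 4 and 0 reads) and 7.70, 11.4 and 0 RPM across aid-sEVs (4, 4 and 0 reads). The groups overlapped because nid-sEV library 3, with a floor of 59.4 RPM, had no read. aid-sEV library 3 had none either. Its log2 fold change was -2.03 (SE 2.10, limma adjusted p = 0.56), and the ratio of its pooled reads, aid-sEVs over nid-sEVs, was 0.104 (counting interval 0.0394 to 0.249). With a library left out, this fold change ranged from -4.16 without nid-sEV library 3 to -0.73 without nid-sEV library 1, and was -1.19 without nid-sEV library 2 and -0.90 without aid-sEV library 3.

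miR-142a-3p, the other arm of the same hairpin, was near the limit of the data. It had 31.0, 0 and 0 RPM across nid-sEVs (4, 0 and 0 reads) and 0, 0 and 8.18 RPM across aid-sEVs (0, 0 and 1 reads). It was over the floor only in nid-sEV library 1, and its log2 fold change of -0.60 (SE 1.69, limma adjusted p = 0.85) became 1.07 without that library. The ratio of the pooled reads, 4 in nid-sEVs and 1 in aid-sEVs, was 0.0617 (counting interval 0.00125 to 0.624). Of the reads of both miR-142a arms in nid-sEV library 1, 4 of 19 (21.1%, Wilson interval 8.51 to 43.3%) were the 3p arm, and no other library held more than 4 reads of the hairpin.

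miR-223-3p, the granulocyte and monocyte miRNA, was also low. It had 31.0, 15.2 and 0 RPM across nid-sEVs (4, 1 and 0 reads) and 5.78, 0 and 0 RPM across aid-sEVs (3, 0 and 0 reads). Only nid-sEV library 1 was over its floor. The log2 fold change was -2.09 (SE 1.59, limma adjusted p = 0.41), and the ratio of 3 to 5 pooled reads was 0.148 (counting interval 0.0230 to 0.761). Leaving out a library gave log2 fold changes from -3.59 without nid-sEV library 3 to -1.09 without nid-sEV library 1.

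Summed over the 4 leukocyte-restricted members, the level was 341, 152 and 416 RPM across nid-sEVs and 34.7, 28.4 and 24.5 RPM across aid-sEVs. The sums did not overlap between the groups, and the mean sum was 10.4-fold lower in aid-sEVs (303 ± 136 against 29.2 ± 5.11 RPM, SD, n = 3 each). The separation of the groups rested on miR-150-5p. Without it, the sums were 178, 76.1 and 0 RPM in nid-sEVs and 13.5, 11.4 and 8.18 RPM in aid-sEVs, and the groups overlapped because nid-sEV library 3 had no read of miR-142a or miR-223. RPM is a share of each library's reads, and the paper reports more sEVs from adaptive islets. In these bulk samples, fewer leukocyte vesicles, fewer leukocytes, less of these RNAs per cell and more RNA from other cells cannot be told apart.

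Sequencing depth differed between the groups, so libraries of like depth were also set side by side. nid-sEV library 1 held 129152 reads and aid-sEV library 3 held 122266 reads. The leukocyte-restricted members had 44 reads in the former and 3 in the latter, and miR-150-5p had 21 and 2. Among the inducible members of the same pair of libraries, miR-146a-5p had 385 and 170 reads, miR-146b-5p had 33 and 80 reads, and miR-21a-5p had 277 and 289 reads. This is 1 library of each group, and the part of depth in the differences was not tested.

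Among the inducible members, miR-155-5p, the miRNA of activated macrophages and lymphocytes, was about as scarce as miR-223-3p. It had 38.7, 0 and 19.8 RPM across nid-sEVs (5, 0 and 1 reads) and 3.85, 0 and 0 RPM across aid-sEVs (2, 0 and 0 reads). It was over the floor only in nid-sEV library 1. Its log2 fold change was -2.47 (SE 1.61, limma adjusted p = 0.33), and the ratio of 2 to 6 pooled reads was 0.0823 (counting interval 0.00812 to 0.460). Leaving out a library gave log2 fold changes from -4.09 without nid-sEV library 2 to -1.43 without nid-sEV library 1.

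miR-146a-5p, the NF-κB-induced feedback regulator, was the most abundant member in nid-sEVs. It had 2981, 5604 and 1563 RPM across nid-sEVs and 1159, 642 and 1390 RPM across aid-sEVs. Every aid-sEV library was below every nid-sEV library, although nid-sEV library 3 and aid-sEV library 3 lay close together. The mean was 3383 ± 2050 RPM in nid-sEVs and 1064 ± 383 RPM in aid-sEVs (SD, n = 3 each). The log2 fold change of -1.55 (SE 0.60, 95% interval -2.99 to -0.11) had an unadjusted limma p of 0.039 and did not pass after adjustment (limma adjusted p = 0.147). It was called lower by edgeR's quasi-likelihood test with its filter (adjusted p = 0.042) and by DESeq2 (adjusted p = 0.023). It was not called by edgeR without a filter (log2 fold change -1.08, adjusted p = 0.236). Leaving out a library gave log2 fold changes of -2.01 to -1.09 and limma adjusted p of 0.063 to 0.390. Among the miRBase-named entries miR-146a-5p ranked 29th to 47th by level in nid-sEVs and 61st to 84th in aid-sEVs.

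miR-146b-5p, with the same seed, did not separate the groups. It had 256, 655 and 98.9 RPM across nid-sEVs and 558, 576 and 654 RPM across aid-sEVs. The aid-sEV libraries were close to each other and lay within the range of the nid-sEV libraries. The mean was 336 ± 287 RPM in nid-sEVs and 596 ± 51.0 RPM in aid-sEVs (SD, n = 3 each), with a log2 fold change of 1.22 (SE 0.75, 95% interval -0.60 to 3.04, limma adjusted p = 0.31). It was 0.54 on the log2 scale without nid-sEV library 3 and 1.90 without nid-sEV library 2.

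The balance of the 2 miR-146 miRNAs did not overlap between the groups. miR-146a-5p made up 92.1, 89.5 and 94.0% of their reads across nid-sEVs and 67.5, 52.7 and 68.0% across aid-sEVs (mean 91.9 ± 2.26% against 62.7 ± 8.70%, SD, n = 3 each). A share within a library does not depend on the total or on the scaling of that library. The Wilson intervals did not overlap between the groups, with a lowest nid-sEV bound of 86.2% and a highest aid-sEV bound of 73.5%. Expressed as reads of miR-146a-5p per read of miR-146b-5p, the libraries had 11.7, 8.56 and 15.8 in nid-sEVs and 2.08, 1.11 and 2.13 in aid-sEVs. The share was 29.2 percentage points lower in aid-sEVs by subtraction of the means, and no test was run on it because the pair was set against each other with earlier results known. The summed level of both miRNAs overlapped between the groups, with 3236, 6258 and 1662 RPM in nid-sEVs and 1718, 1218 and 2045 RPM in aid-sEVs.

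**Figure D2:**
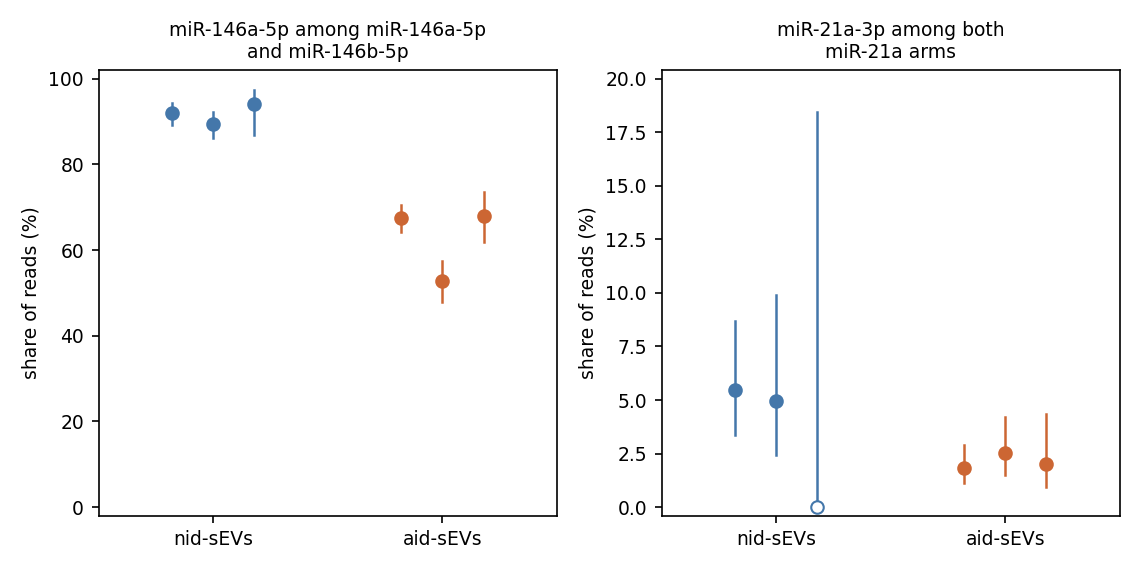
Share of reads (%) of miR-146a-5p among miR-146a-5p and miR-146b-5p (left) and of miR-21a-3p among both arms of miR-21a (right) in each library, with 95% Wilson intervals as vertical lines and the open point marking 0 reads. The miR-146a-5p share is 89.5% or more across nid-sEVs and 68.0% or less across aid-sEVs, while the intervals of the miR-21a-3p share overlap between the groups.

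miR-21a-5p, the broadly expressed injury-responsive miRNA, was the most abundant member in aid-sEVs. It had 2145, 2040 and 336 RPM across nid-sEVs and 1762, 1527 and 2364 RPM across aid-sEVs. aid-sEV libraries 1 and 2 lay below and aid-sEV library 3 lay above nid-sEV libraries 1 and 2, and nid-sEV library 3 stood far below all others. The mean was 1507 ± 1015 RPM in nid-sEVs and 1884 ± 431 RPM in aid-sEVs (SD, n = 3 each), with a log2 fold change of 0.70 (SE 0.79, 95% interval -1.21 to 2.61, limma adjusted p = 0.59) that became -0.18 without nid-sEV library 3, 1.16 without nid-sEV library 1 and 1.12 without nid-sEV library 2.

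miR-21a-3p, the minor arm of the same hairpin, had 124, 107 and 0 RPM across nid-sEVs (16, 7 and 0 reads) and 32.7, 39.7 and 49.1 RPM across aid-sEVs (17, 14 and 6 reads). Its aid-sEV values lay below those of nid-sEV libraries 1 and 2 and above the 0 of nid-sEV library 3. The log2 fold change of 0.79 (SE 1.95, limma adjusted p = 0.83) was set by that library and became -1.50 without it. The 3p arm made up 5.46% and 4.96% of the miR-21a reads in nid-sEV libraries 1 and 2 and 1.82, 2.54 and 2.03% across aid-sEVs. In nid-sEV library 3 it had 0 of 17 reads, with a Wilson interval that reaches up to 18.4%.

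**Figure D3:**
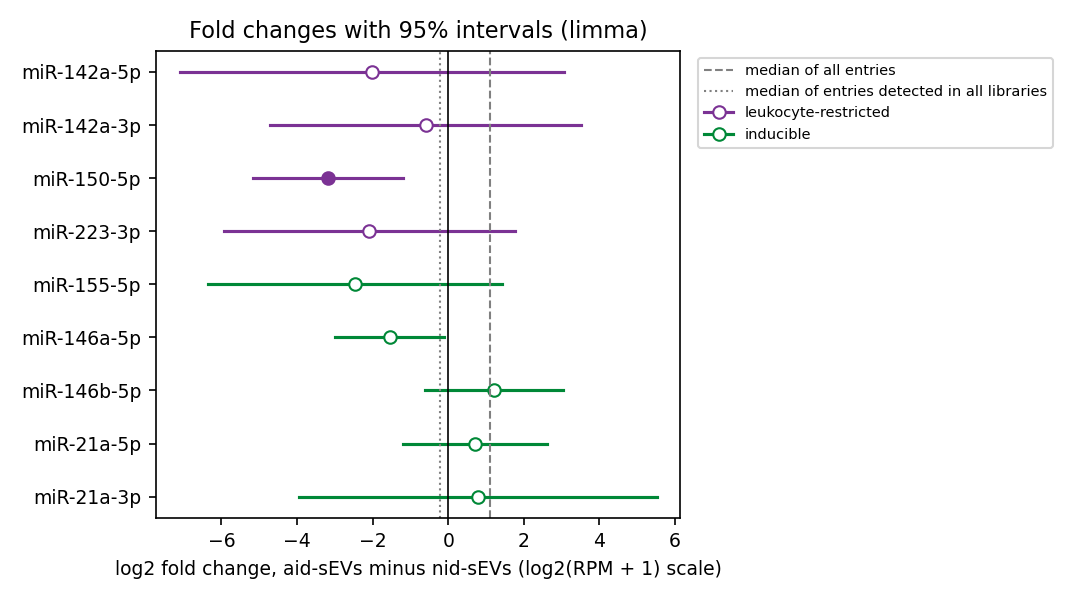
Log2 fold change of each member (aid-sEVs minus nid-sEVs on the log2(RPM + 1) scale) with 95% limma intervals as horizontal lines, leukocyte-restricted members in purple and inducible members in green. The filled point is the member called after adjustment over all entries, and the vertical lines mark the medians of all entries (1.11, dashed) and of the 219 entries detected in all libraries (-0.21, dotted). The point of miR-150-5p lies at -3.19 with an interval that ends at -1.21, and the intervals of the other members except miR-146a-5p include 0.

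The inducible members together had 5544, 8406 and 2018 RPM across nid-sEVs and 3516, 2785 and 4457 RPM across aid-sEVs, and the groups overlapped. Within that sum, miR-21a-5p made up 38.7, 24.3 and 16.7% of the reads in nid-sEVs and 50.1, 54.8 and 53.0% in aid-sEVs. Its share was thus higher in every aid-sEV library, while both miR-146 miRNAs together made up 58.4, 74.5 and 82.4% in nid-sEVs and 48.8, 43.7 and 45.9% in aid-sEVs. The leukocyte-restricted members took 5.79, 1.78 and 17.1% of the reads of all 9 members in nid-sEVs and 0.976, 1.01 and 0.547% in aid-sEVs. The shares did not overlap, and the difference of the group means, -7.37 percentage points, became -2.94 without nid-sEV library 3. For each read of a leukocyte-restricted member there were 6.30, 13.4 and 0.81 reads of miR-21a-5p across nid-sEVs and 50.8, 53.8 and 96.3 across aid-sEVs, the last of them resting on 3 leukocyte-restricted reads.

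By mean level, the order in nid-sEVs was miR-146a-5p, miR-21a-5p, miR-146b-5p, miR-150-5p, miR-21a-3p, miR-142a-5p, miR-155-5p, miR-223-3p and miR-142a-3p. Each neighbouring pair in this order overlapped over the 3 libraries. In aid-sEVs the order was miR-21a-5p, miR-146a-5p, miR-146b-5p, miR-21a-3p, miR-150-5p, miR-142a-5p, miR-142a-3p, miR-223-3p and miR-155-5p. Here the neighbours did not overlap between miR-21a-5p and miR-146a-5p, between miR-146b-5p and miR-21a-3p, between miR-21a-3p and miR-150-5p, or between miR-150-5p and miR-142a-5p. Only 4 of the 9 members were detected in all libraries, and 3 of them (miR-146a-5p, miR-146b-5p and miR-21a-5p) were over the floor in all libraries.

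The summed red cell markers and the liver miRNA miR-122-5p were, like the leukocyte-restricted sum, lower in all aid-sEV libraries. The 5 red cell markers were all listed and all had log2 fold changes below 0, and their summed level was 4274 to 12884 RPM in nid-sEVs and 728 to 1540 RPM in aid-sEVs, without overlap. Among them only miR-486a-5p passed the limma test (log2 fold change -3.07, adjusted p = 0.025). DESeq2 called 4 of the 5 lower, edgeR with its filter called 2 lower, and edgeR without a filter called 0. miR-451a did not overlap between the groups, whereas miR-144-3p, miR-144-5p and miR-486b-5p did, and miR-144-5p had no read in any aid-sEV library. The mature miR-486a-5p and miR-486b-5p are so alike that the counting could split their reads, and how it did so was not given. Reads of miR-486a-5p numbered 881, 232 and 201 across nid-sEVs and 653, 114 and 48 across aid-sEVs. Those of miR-486b-5p numbered 503, 16 and 3 and then 16, 169 and 36. The call of miR-486a-5p alone, and its profile used below, rest on that split. The hepatocyte miRNA miR-122-5p fell from 1618, 3000 and 396 RPM across nid-sEVs to 38.5, 42.6 and 24.5 RPM across aid-sEVs (log2 fold change -5.14, limma adjusted p = 0.016). The paper also lists miR-122-5p as decreased in aid-sEVs. The part of these cells in the lower level of miR-150-5p was not tested.

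**Figure D4:**
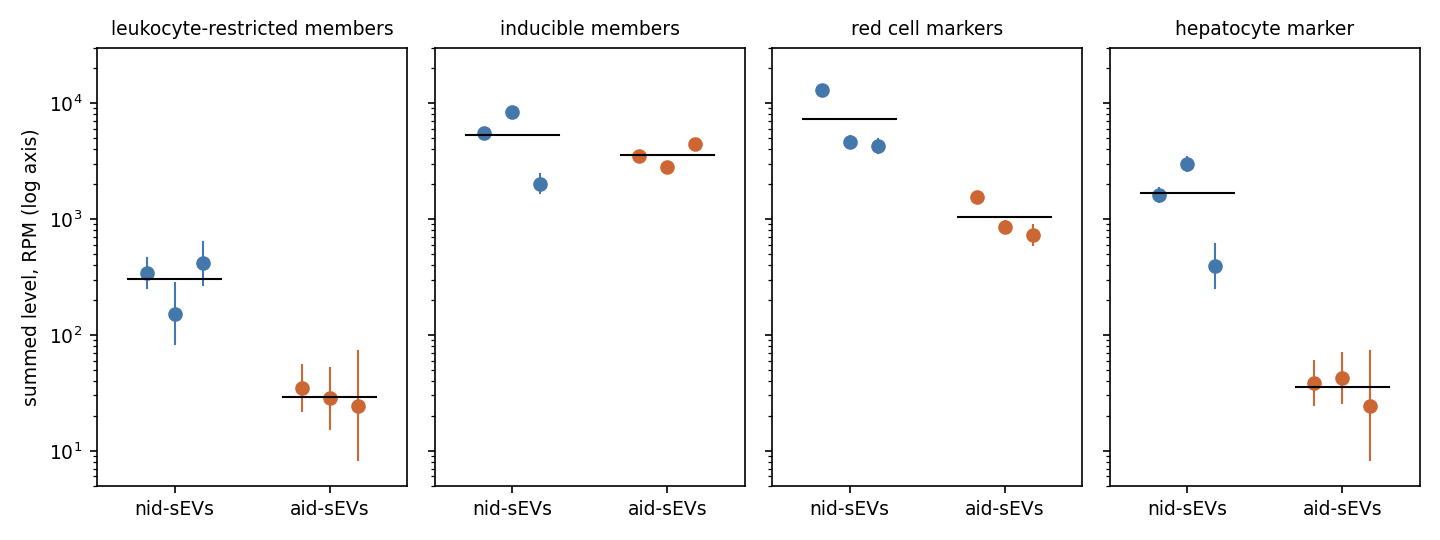
Summed level in RPM (log axis) of the leukocyte-restricted members, the inducible members, the red cell markers and the hepatocyte marker in each library. Points are libraries, vertical lines are 95% Wilson intervals and horizontal lines are group means. The leukocyte-restricted, red cell and hepatocyte sums of each aid-sEV library lie below those of all nid-sEV libraries, while the inducible sums overlap.

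The marker lists of cells that reside in or around islets gave no limma call in either direction. The mesenchymal list did not hold miR-199b-5p or miR-199b-3p, which the paper lists as decreased in aid-sEVs. None of the lists held the epithelial miRNAs miR-200c-3p and miR-200b-3p. limma called both lower (log2 fold changes -1.81 and -1.68, adjusted p = 0.030 and 0.046). The absence of calls therefore holds for the listed markers only. The 3 endocrine markers summed to 70785 to 357146 RPM in nid-sEVs and 151023 to 174370 RPM in aid-sEVs. The 3 acinar markers summed to 2533 to 8997 against 698 to 3370 RPM, the 2 endothelial markers to 989 to 3717 against 679 to 1325 RPM, and the 5 mesenchymal markers to 5383 to 24080 against 4480 to 11623 RPM. At an unadjusted limma p under 0.05, 1 mesenchymal marker was lower and 0 markers of these 4 lists were higher, and edgeR and DESeq2 called 0. Log2 fold changes were below 0 in 2 of 3 endocrine markers (median -0.14), 3 of 3 acinar markers (median -1.41), 2 of 2 endothelial markers (median -1.04) and 4 of 5 mesenchymal markers (median -1.49). The summed levels overlapped between the groups in each list.

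None of the other listed miRNAs of lymphoid and myeloid cells passed the limma test. Of a list of 14, many of which non-blood cells also make, 12 were listed, 6 had log2 fold changes below 0, and the median was 0.06. limma called 0 of the 12 lower and 0 higher, with 0 lower and 1 higher at an unadjusted p under 0.05, and edgeR and DESeq2 called 0. Their summed level was 50266 to 57758 RPM in nid-sEVs and 59707 to 84038 RPM in aid-sEVs, higher in all aid-sEV libraries and so in the opposite order to the leukocyte-restricted sum. The most abundant were miR-99b-5p, with 24906 ± 8022 RPM in nid-sEVs and 22010 ± 3844 RPM in aid-sEVs, and miR-191-5p, with 10826 ± 6591 RPM in nid-sEVs and 30646 ± 7969 RPM in aid-sEVs (SD, n = 3 each). miR-191-5p was higher in every aid-sEV library but did not pass (log2 fold change 1.63, SE 0.48, limma adjusted p = 0.070). Its mean rose by more than the mean of the whole sum, which was 54900 RPM in nid-sEVs and 72746 RPM in aid-sEVs. The separation of the sums of this list therefore rested on miR-191-5p.

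Of 16 other inflammation-linked miRNAs, 12 were listed, 5 had log2 fold changes below 0, and the median was 0.05. Their summed level overlapped, with 9696 to 26435 RPM in nid-sEVs and 8628 to 15605 RPM in aid-sEVs. limma called 0 lower and 0 higher, with 0 lower and 1 higher at an unadjusted p under 0.05, whereas edgeR with its filter and DESeq2 each called 1 higher. That miRNA was miR-132-3p, an activity-induced miRNA that was picked out here after its values were seen, with 64.1 ± 50.2 RPM in nid-sEVs and 211 ± 41.8 RPM in aid-sEVs (SD, n = 3 each, log2 fold change 1.95, limma adjusted p = 0.138). The most abundant of this list, miR-29a-3p, had 9478 ± 7137 RPM in nid-sEVs and 8538 ± 2991 RPM in aid-sEVs. miR-125b-5p had 4838 ± 1273 and 2937 ± 773 RPM and was lower in every aid-sEV library without passing the test (log2 fold change -0.72, limma adjusted p = 0.243).

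The miRNAs whose profile over the 6 libraries was nearest to the members were found by the root mean square difference of mean-centred log2(RPM + 1) values among 174 miRBase-named miRNAs detected in all libraries. Nearest to the summed leukocyte-restricted members were miR-486a-5p (0.64, against a median of 1.89 for all candidates), miR-200c-3p (0.81), miR-5119 (0.94), miR-200b-3p (0.96) and miR-145a-5p (0.99). Of these, miR-486a-5p, a red cell miRNA, and miR-200c-3p and miR-200b-3p, miRNAs of epithelial cells, were called lower in aid-sEVs by limma, the latter pair with log2 fold changes of -1.81 (adjusted p = 0.030) and -1.68 (adjusted p = 0.046). Nearest to the summed inducible members were miR-300-3p (0.22, against a median of 1.11), miR-99a-5p (0.26), miR-103-3p (0.32), miR-494-3p (0.32) and miR-152-3p (0.34). None of these 5 passed the limma test, with log2 fold changes from -0.49 to 0.14. The likeness is a description over 6 libraries that share the contrast of the groups.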

How the data were processed

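Small RNA libraries of sEVs from cultured islets were sequenced once each, and samples were grouped by their titles. The submitters' processing notes name fastp 0.23.0, HISAT2 2.2.1 and GRCm38, without their order or settings; the miRNA reference and the filters were not given in the sources used here. The authors deposited RPM values of 718 entries per library. Columns of their own comparison (fold change, mean abundance, p-value and false discovery rate) were not used in any test.

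Within each library all RPM values were whole multiples of the smallest value (100% within 0.02 of a read), which gave the reads of each entry and the library total. The test was limma 3.58.1 (lmFit, eBayes with trend) in R 4.3.3 on log2(RPM + 1) with the group as the only term and Benjamini-Hochberg adjustment over all entries. An entry was called at an adjusted p under 0.05 if its fold change was also beyond 1 on the log2 scale. The scripts were tested on simulated data. Alternatives were pseudocounts of 0.1 and 10, a mean RPM of at least 10, edgeR 4.0.16 and DESeq2 1.42.0 on the recovered reads, scaling by TMM factors, centring, miRBase-named entries only, a replicate block, thinning of all libraries to the lowest total, and each library left out in turn. For the shares, thinning and leaving out libraries were chosen after seeing the data.

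Named are every member, markers that passed the test, at most 4 abundant entries of each list, and the 5 miRNAs nearest in profile to each group of members. The members and the lists were chosen with earlier results of these data known. Replicate numbers come from the titles, and nothing states that same-numbered libraries are paired. Sequences and positions come from RefSeq (GRCm38.p6) and GENCODE M21.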

Additional observations from a re-analysis of the deposited data

How the results depend on the processing

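Depth limited miR-142a-3p, miR-223-3p and miR-155-5p, which were over the floor in 1 library each. The call of miR-150-5p was kept by DESeq2 (adjusted p = 0.0025) and with miRBase-named entries only (limma adjusted p = 0.029), and its direction was kept in all 16 alternatives in which it was tested. It was lost with a pseudocount of 0.1 (limma adjusted p = 0.053) or 10 (0.055), a mean RPM of at least 10 (0.051), TMM factors (0.105), centring (0.071), thinning (0.241) and edgeR without a filter (0.073), and without any 1 library. The members called lower therefore numbered 0 in these settings and 2 with DESeq2, and those called higher numbered 0 in all 17 alternatives. Same-numbered libraries were no more alike than others, with correlations of their deviations of -0.053, 0.058 and -0.051. Those of different-numbered libraries ranged from -0.123 to 0.141. With so few libraries these values cannot exclude a shared preparation. With the replicate block, 0 members and 0 entries were called in either direction, and miR-150-5p had a limma adjusted p of 0.128.

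The number of entries called higher, 112, was 62 with a pseudocount of 10, 69 with the RPM minimum, 48 and 56 by edgeR with and without a filter, 65 by DESeq2, 28 after thinning and 33 to 150 with a library left out. The number called lower, 13, was 8 with a pseudocount of 0.1, 21 and 7 by edgeR with and without a filter, 50 by DESeq2, 3 with TMM factors, 2 after thinning and 1 to 26 with a library left out. The lowest of both ranges came without nid-sEV library 2 and the highest without nid-sEV library 1. TMM factors moved the median of all entries from 1.11 to 1.43.

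The log2 fold change of miR-142a-3p turned to 1.07 without nid-sEV library 1 (lowest -1.67 with a library left out), and that of miR-21a-5p to -0.18 without nid-sEV library 3 (highest 1.16). That of miR-21a-3p turned to -0.10 with a pseudocount of 10, -0.45 by edgeR without a filter, -0.87 by DESeq2, -0.10 after thinning and -1.50 without nid-sEV library 3 (highest 1.98 with a library left out). The log2 ratio of the summed inducible members turned to 0.012 with TMM factors (-0.96 to -0.08 with a library left out). That of the leukocyte-restricted sum stayed between -3.70 and -2.87, and the difference in the miR-146a-5p share, aid-sEVs minus nid-sEVs, stayed between -31.8 and -24.2 percentage points in all 7 alternatives run for it. The causes were not tested.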
